A study of Homo sapiens with 3 samples.

Results

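EIF4G2 encodes a translation initiation factor, also known as DAP5, NAT1 and P97. Its transcript had among the most regions shared by 3 replicate peak lists from a crosslinked pulldown of HA-tagged HNRNPA0 in HEK293T cells. Its peaks were taken as all lines of the 3 replicate peak lists that carry its Ensembl gene ID, ENSG00000110321.15. This gave 19 peaks in replicate 1, 28 in replicate 2 and 25 in replicate 3, out of 15661, 15486 and 17791 distinct peaks in those lists. The gene was picked because results of these same lists had shown many regions in it, so its counts are given as a description and no test is attached to them. HNRNPA0 belongs to the hnRNP A/B group of RNA-binding proteins, and the study concerned proteins that contact RNA G-quadruplexes, structures that form in guanine-rich RNA.

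All 3 samples were HEK293T cells, a human embryonic kidney line, of wild-type genotype, that had received 750 ng of a vector for the HA-tagged protein on a 15 cm plate and were harvested the day after, so the tagged protein came from a plasmid in every sample. They were crosslinked with 254 nm UV at 0.3 J/cm2 and processed by easyCLIP, in which RNA bonded to the protein is pulled down through the HA tag, trimmed with RNase and sequenced. The labels do not say whether the replicates came from separate cultures, and the replicates were pooled after adapter ligation, so the spread between them may be technical. There was 1 group and no control library, so RNA held by HNRNPA0 cannot be told apart here from RNA recovered without it, nor from the abundance of the transcript.

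The eIF4G proteins are scaffolds that bring the helicase eIF4A and the multisubunit factor eIF3 together so that the small ribosomal subunit can be loaded onto messenger RNA. EIF4G2 resembles the middle and C-terminal portions of EIF4G1 but lacks the N-terminal portion that binds the cap-binding protein eIF4E, and it is known for supporting initiation that does not depend on eIF4E. Its own protein is made from a GUG start codon, and its messenger RNA carries an element that allows cap-independent initiation.

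The gene lies on the minus strand at chr11:10797046-10808926 (hg38) and spans 11881 bp. RefSeq (GRCh38.p14) gives 2 starts for it, at 10808926 and at 10807996, the second 930 nt inside the first. All 72 peaks were on the minus strand, and no line of another gene ID or of the plus strand fell in the interval. The peaks ran along nearly the whole gene. The first began 170, 85 and 151 nt from the 5' end in replicates 1, 2 and 3, and the last ended 239, 243 and 421 nt from the 3' end. They covered 1319, 1500 and 1198 nt of the gene, or 11.3% ± 1.28 (SD, n = 3), and 18.1% over the 3 lists combined. Exon, intron and untranslated region borders were not used here, so peaks are placed by distance along the gene with introns included.

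The number at the end of each peak name was read as the number of reads in that peak and is called the read number. EIF4G2 had summed read numbers of 420, 556 and 448 in replicates 1, 2 and 3. This was 0.458% ± 0.0904 of the summed read numbers of all nuclear-encoded peaks (SD, n = 3), which came to 100038, 99141 and 114203. By that sum EIF4G2 ranked 8, 6 and 8 among the genes named in the 3 lists. Replicate 2 had the most peaks and the highest sum, while replicate 3 held the single highest peak.

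**Figure D1:**
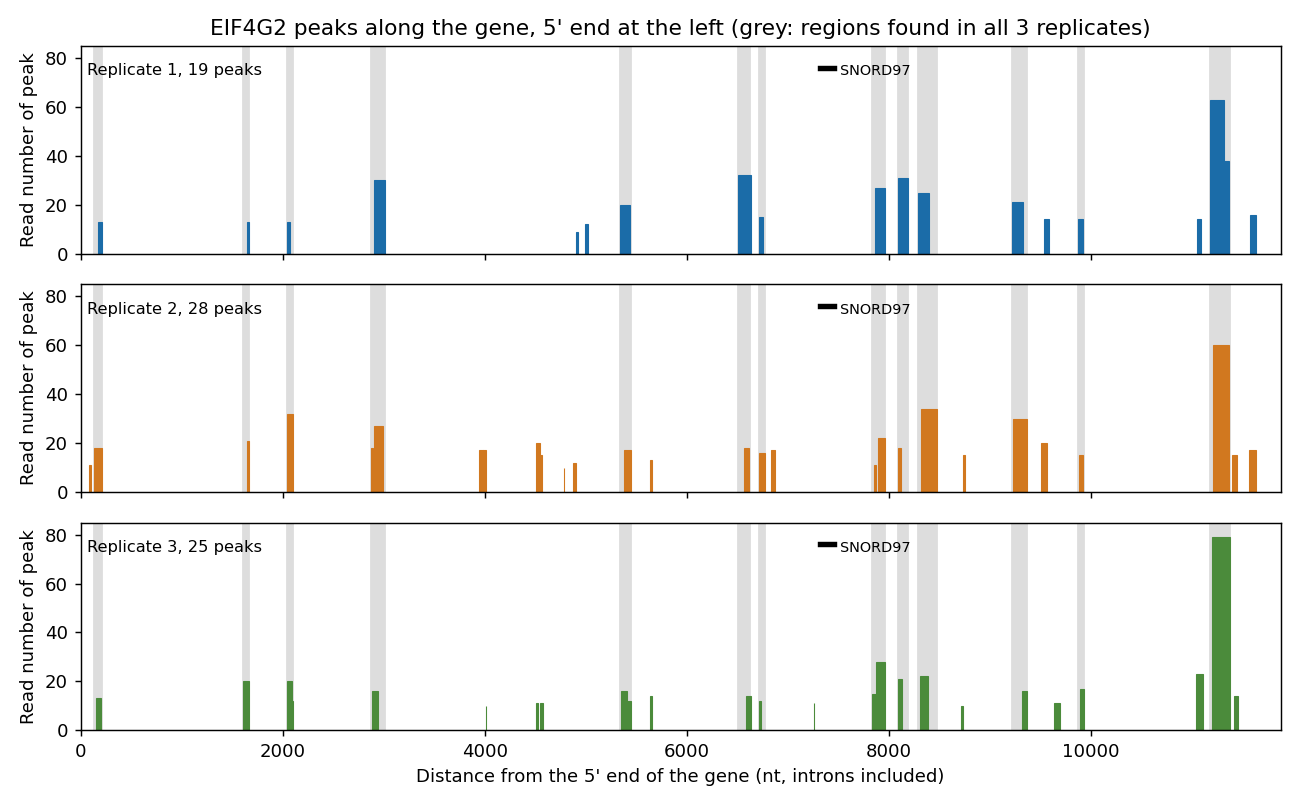
Read number (vertical axis) of each EIF4G2 peak against distance from the 5' end of the gene in nt (horizontal axis), for replicates 1, 2 and 3, with bars as wide as the peaks. Grey bands mark the 13 regions found in all 3 replicates, and the tallest bars, at 63, 60 and 79, stand in the last band near the 3' end.

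Peaks of the 3 lists that overlapped by at least 1 bp were merged, which gave 30 regions in EIF4G2. Of these, 13 held a peak from all 3 replicates, 10 from a pair of them and 7 from a single one. Across all transcripts 6.23% of merged regions held a peak from all 3 replicates, but EIF4G2 was selected on this count, so nothing is read from the difference. The number is sensitive to the lists used. Without replicate 1, when a region needed both remaining lists, 20 regions were counted, and 7 were left when peaks had to share 50% of both lengths. Among genes that could be named, only XIST, a noncoding RNA, had more regions in all 3 replicates, with 30, and SLIT2 had as many as EIF4G2 in a gene of 368657 bp.

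The strongest region lay near the 3' end, at chr11:10797545-10797740, which is 11186 to 11381 nt from the 5' end. Its highest read numbers were 63, 60 and 79 in replicates 1, 2 and 3. In each replicate this was the highest peak of the gene, above every other EIF4G2 region. The highest read number in the other 12 shared regions was 32, 34 and 28, in a different region in each replicate. The strongest was 2.18 ± 0.561 times as high as these (SD, n = 3). In replicate 1 it was split into a pair of touching peaks with read numbers of 63 and 38. The region held 24.0%, 10.8% and 17.6% of the gene's summed read number.

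Weaker peaks surrounded it within the last 10% of the gene. The region at chr11:10797810-10797880 had read numbers of 14 and 23 in replicates 1 and 3 and no peak in replicate 2. That at chr11:10797467-10797528 had 15 and 14 in replicates 2 and 3, and that at chr11:10797285-10797357 had 16 and 17 in replicates 1 and 2. Each of these 3 was missing from a different replicate. The last 10% as a whole held 4, 3 and 3 peaks, or 14.6% ± 5.63 of the gene's peaks and 24.5% ± 7.41 of its read number (SD, n = 3). Upstream of this group, 1111 nt without a peak in any list separated it from the rest of the gene.

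Other shared regions lay in the middle of the gene and on its 3' side. A group of 3 lay close together between 7838 and 8483 nt from the 5' end. The region at chr11:10800962-10801088 had highest read numbers of 27, 22 and 28. That at chr11:10800730-10800836 had 31, 18 and 21. The third, at chr11:10800443-10800631, had 25, 34 and 22, the second-highest mean of the gene at 27.0 ± 6.24 (SD, n = 3). The replicates did not rank these neighbours alike: replicate 1 was highest in the second, replicate 2 in the third and replicate 3 in the first. Farther 3', the region at chr11:10799552-10799703 had 21, 30 and 16, and the one at chr11:10798992-10799048 had 14, 15 and 17.

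A further 5 shared regions lay between 2040 and 6777 nt from the 5' end. The region at chr11:10803480-10803586 had highest read numbers of 20, 17 and 16, and that at chr11:10802149-10802210 had 15, 16 and 12. These 2 varied little between replicates. Between them, chr11:10802294-10802414 had 32, 18 and 14, with replicate 1 at 2.29 times replicate 3. The region at chr11:10805911-10806048 had 30, 27 and 16. At chr11:10806820-10806886 the read numbers were 13, 32 and 20, and there the highest replicate was 2.46 times the lowest, the widest ratio among the 13 regions.

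A pair of shared regions lay near the 5' end. The first, at chr11:10808716-10808791, had read numbers of 13, 18 and 13 and stood 135 to 210 nt downstream of the outer start. The second, at chr11:10807255-10807316, had 13, 21 and 20 and stood 1610 to 1671 nt downstream of it. Between them, 1399 nt held no peak in any list, the longest such stretch of the gene, and the inner start at 10807996 lies inside it. No EIF4G2 peak overlapped the promoter windows that RefSeq coordinates give around the 2 starts. The window at the inner start lies inside that stretch, and most of the window at the outer start lies upstream of the gene. Their lack of peaks therefore adds little.

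**Figure D2:**
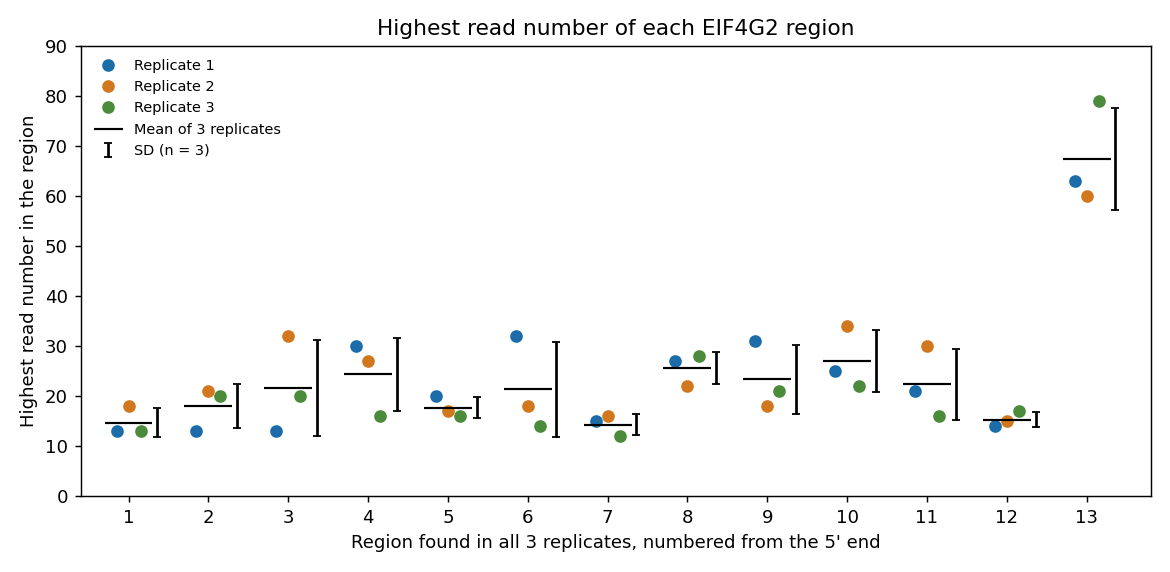
Highest read number (vertical axis) in each of the 13 EIF4G2 regions found in all 3 replicates (horizontal axis, numbered from the 5' end), with a point per replicate, the mean as a line and the SD (n = 3) as a bar beside it. Region 13, near the 3' end, lies between 60 and 79, and the points of the other 12 lie between 12 and 34.

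In regions 1 to 12 the mean highest read numbers ran from 14.3 ± 2.08 to 27.0 ± 6.24 (SD, n = 3). With these regions ranked by that mean, the values of neighbours in the ranking overlapped. Those at its ends did not: region 7, at 12 to 16, lay below region 10, at 22 to 34. Only region 13 had values that overlapped with no other. Across the 13 regions, the Spearman correlation of the highest read numbers was 0.29 between replicates 1 and 2, 0.33 between replicates 1 and 3 and 0.60 between replicates 2 and 3. These are correlations across regions of 1 transcript, which are not independent. Region 13 ranked highest in every replicate, which raises each of them, and they were not computed without it.

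One part of the gene held peaks in replicates 2 and 3 that replicate 1 did not have. Of 10 equal segments of the gene, the fourth, 3564 to 4752 nt from the 5' end, held 0, 4 and 3 peaks, and was the only segment without a peak in 1 of the replicates. Its peaks in replicate 2 came as 2 touching pairs, with read numbers of 17 and 17 at chr11:10804914-10804977 and of 20 and 15 at chr11:10804358-10804418. Replicate 3 had read numbers of 10, 11 and 11 in peaks that overlapped 3 of these 4. As shares of the gene's read number the segment held 0%, 12.4% and 7.14%. The nearest peak of replicate 1 lay just outside the segment, in the region at chr11:10804001-10804048, where the read number was 9, the lowest of the 72 peaks, and 12 in replicate 2.

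SNORD97, a box C/D small nucleolar RNA whose gene at chr11:10801467-10801608 lies inside EIF4G2, held no peak in any replicate. The nearest EIF4G2 peak was 52 nt away and was 3 nt wide, with a read number of 11 in replicate 3. Of the neighbouring genes, CTR9, which encodes a subunit of the PAF1 transcription elongation complex, lies 17299 nt away and had 2, 4 and 3 peaks with highest read numbers of 8, 7 and 7. LOC101928053, a noncoding RNA gene that begins 370 nt past the outer start, had none.

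Peaks that touch end to end within a list were few. There were 1, 2 and 3 touching pairs in replicates 1, 2 and 3, and counting each run once left 22.0 ± 4.00 peaks (SD, n = 3) in place of 24.0 ± 4.58. Each deposited line also marks a short stretch inside the peak, given by its last 2 columns. It was 4 nt long in 18, 26 and 22 EIF4G2 peaks and shorter in the other 1, 2 and 3. Its position moved between replicates: in the 13 shared regions the stretches of the highest peaks were 2 to 90 nt apart over the 3 lists, with a median of 30 nt, and in the other 2324 nuclear-encoded regions found in all 3 replicates the median was 23 nt. In region 2 all of them lay within 2 nt, while in region 10 that of replicate 2 was 90 nt from that of replicate 1. In the strongest region they lay within 12 nt.

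Several regions ended at exactly the same nucleotide in different replicates. At the 3' side, 6 of the 13 EIF4G2 regions had an edge that was identical in at least 2 replicates, or 46.2%, and 2 of them had the same edge in all 3. These 2 were region 2, with its edge at 10807255, and region 8, with its edge at 10800962. At the 5' side, 2 of 13 did, or 15.4%. In the other 2324 regions the shares were 13.6% at the 3' side and 13.8% at the 5' side. The difference was not tested. It is not particular to EIF4G2 among the genes most like it, ranked further on. Their 3' counts were 5 of 10 in RPL4, 4 of 8 in NCL, 4 of 12 in NUCKS1, 4 of 12 in NAP1L1 and 2 of 8 in SERBP1. Exon borders, with which the edges could be set side by side, were not used here. In region 2 the marked stretch also began on that edge or 1 nt from it in all 3 replicates.

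**Figure D3:**
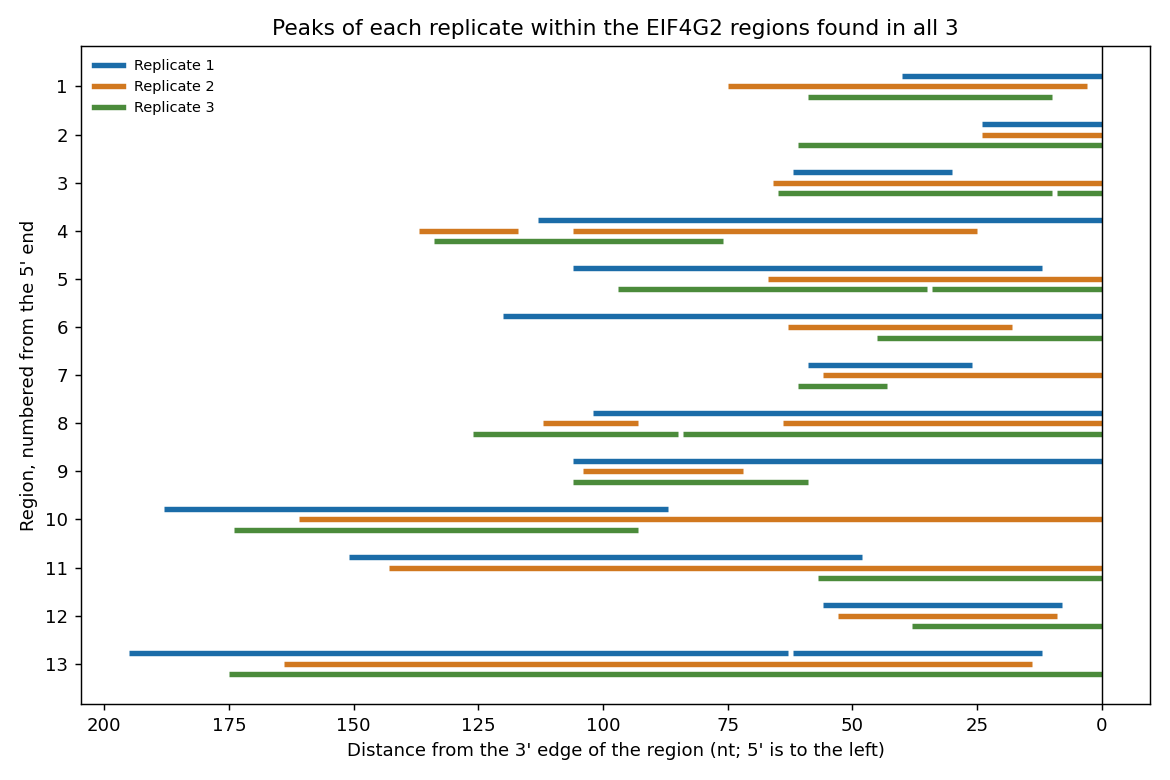
Extent of each replicate's peaks (coloured lines) in the 13 shared EIF4G2 regions (vertical axis, numbered from the 5' end), as distance in nt from the 3' edge of the region (horizontal axis, 5' to the left). In regions 2 and 8 all 3 replicates end on the same nucleotide at the right, and in regions 3, 5, 6 and 11 a pair of them does.

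Peaks of EIF4G2 had higher read numbers than most peaks in the lists. The lowest was 9, 10 and 10 in the 3 replicates and the median 16, 17 and 14, against a lowest of 3 and a median of 4 among all other nuclear-encoded peaks in each replicate. The lowest EIF4G2 value, 9, was then taken as a cutoff, which all EIF4G2 peaks reach by definition. Of the others, 12.7% ± 0.908 had a read number of 9 or more (SD, n = 3). The floor was also higher than in most genes with many peaks. Of 253, 258 and 315 genes with 10 or more peaks, 11, 8 and 7 had a lowest read number above that of EIF4G2, and the median lowest value was 3. The genes found most like EIF4G2, ranked further on, mostly shared such a floor, with a lowest read number over the 3 lists of 38 in NUCKS1, 11 in NCL and 9 in RPL4 and SERBP1, but 3 in NAP1L1.

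Recurrence of a peak moved with its read number, in EIF4G2 and elsewhere. Regions shared by the 3 replicates took in 63.8% ± 10.1 of EIF4G2 peaks, against 16.1% ± 1.22 of the other nuclear-encoded peaks (SD, n = 3), from which nothing is read, as the gene was picked for its shared regions. The peaks were also split by read number with the lists pooled. A region can then count more than once, as the 72 EIF4G2 peaks lay in 30 regions. At 9 to 11 reads the shares were 1 of 10 EIF4G2 peaks against 42.8% of the others. At 12 to 14 they were 56.2% against 59.5%, at 15 to 19 they were 61.9% against 71.7%, and at 20 to 29 they were 80.0% against 85.4%. Above that, at 30 reads or more, all 10 EIF4G2 peaks lay in such regions, against 91.5% of the others. Shares in a region of 2 or more replicates stood in another order: 60% of EIF4G2 peaks against 73.8% of the others at 9 to 11 reads, 93.8% against 84.5% at 12 to 14, 90.5% against 90.5% at 15 to 19 and 100% against 95.8% at 20 to 29. On both measures the EIF4G2 share was below that of the others by most at 9 to 11 reads, where its peaks were also narrowest. The median width in that class was 17.5 nt in EIF4G2 and 77.0 nt in the others. The classes are thus not like for like in width, and nothing is read from the differences between EIF4G2 and the others.

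At the same read number EIF4G2 peaks were narrower than the others, except the strongest. Their median width was 17.5 nt against 77.0 nt at 9 to 11 reads, 34 against 85 nt at 12 to 14, 45.0 against 92.0 nt at 15 to 19 and 71.0 against 100 nt at 20 to 29. At 30 or more it was 127 nt against 92.0 nt. Over all peaks the median width was 51.0, 43.5 and 46.0 nt in EIF4G2 against 63.0, 62.0 and 64.0 nt elsewhere. With the lists pooled it was 47 nt in EIF4G2, against 43.5 nt in NCL, 51.5 nt in RPL4, 53 nt in NUCKS1, 54 nt in NAP1L1 and 66 nt in SERBP1. The narrowest EIF4G2 peak covered 1 nt, at position 10804137 in replicate 2, with a read number of 10. Of 20 EIF4G2 peaks under 30 nt, 6 belonged to a region shared by the 3 replicates, while 21 of the 25 peaks of 60 nt or more did.

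The authors' p-values for EIF4G2 peaks were small compared with those of the lists as a whole. The highest in the gene was 1.35e-05, 6.68e-07 and 5.86e-05 in replicates 1, 2 and 3, while the lists reach 0.0437, 0.0435 and 0.0432. At a read number of 15 to 19 the median deposited p-value was 2.14e-10 in EIF4G2 and 6.49e-13 among the other peaks, and at 9 to 11 it was 1.24e-07 and 3.21e-07. From a read number of 12 up the EIF4G2 medians were the larger ones. How the peak caller set its background is not given in the sources used here.

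**Figure D4:**
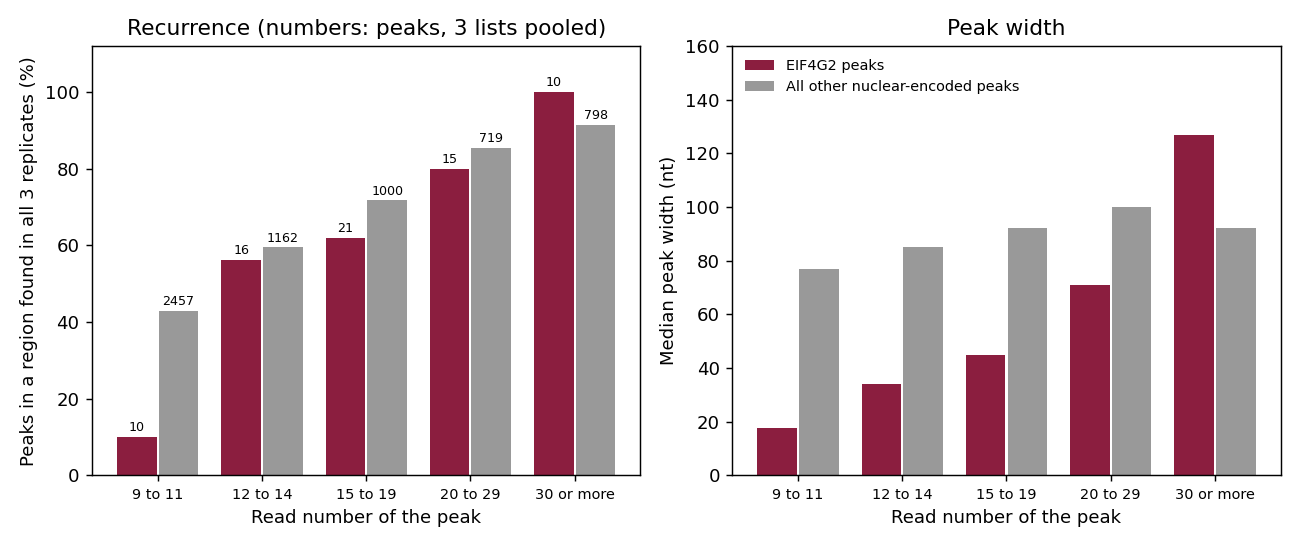
Share of peaks in a region found in all 3 replicates (left, %) and median peak width in nt (right), by the read number of the peak, for EIF4G2 (red) and all other nuclear-encoded peaks (grey), with the 3 lists pooled and the number of peaks above the left bars. The share in all 3 replicates is below that of the others in the first 4 classes of read number and above it in the last, and the median width of EIF4G2 peaks goes from 17.5 nt at 9 to 11 reads to 127 nt at 30 or more.

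The genes most like EIF4G2 were ranked by the mean absolute log2 ratio over 3 measures, the mean number of peaks, the number of regions in all 3 replicates and the mean highest read number, each over 3 replicates. Among 1143 protein-coding genes with such a region and a name of their own, the closest were NUCKS1, a chromatin-associated protein, at a distance of 0.55, NAP1L1, a histone chaperone, at 0.55, RPL4, a large-subunit ribosomal protein, at 0.59, NCL, the nucleolar protein nucleolin, at 0.59, and SERBP1, a ribosome-associated RNA-binding protein, at 0.63. These genes still differed from EIF4G2 on single measures. NUCKS1 had a highest read number of 168 ± 4.51, against 67.3 ± 10.2 in EIF4G2, and NAP1L1 had 26.3 ± 6.66 (SD, n = 3). The other 3 had 10, 8 and 8 regions in all replicates against 13 in EIF4G2.

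Peaks occupied more segments of EIF4G2 than of these genes, which is a description with no test. EIF4G2 also had more peaks, and more peaks can fill more segments. It had 24.0 ± 4.58 on average, against 21.0 in NAP1L1, 20.7 in NUCKS1, 16.0 in SERBP1, 13.3 in RPL4 and 12.7 in NCL (SD, n = 3). Of the 10 segments, 9 held a peak of every replicate in EIF4G2, against 7 in SERBP1, 6 in RPL4 and 4 each in NUCKS1, NAP1L1 and NCL. The largest segment of EIF4G2 was the last, with 24.5% ± 7.41 of the gene's read number, and the others held 3.74% to 13.2%. In NAP1L1 the eighth segment held 50.7% ± 6.71, in NUCKS1 the last held 44.6% ± 6.11 and in NCL the fourth held 44.2% ± 5.81 (SD, n = 3). RPL4, NAP1L1 and NCL had no peak in the last segment. The genes differ in length, from 6841 bp for RPL4 to 48101 bp for NAP1L1, and segments of a gene hold different amounts of exon, which was not measured here.

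**Figure D5:**
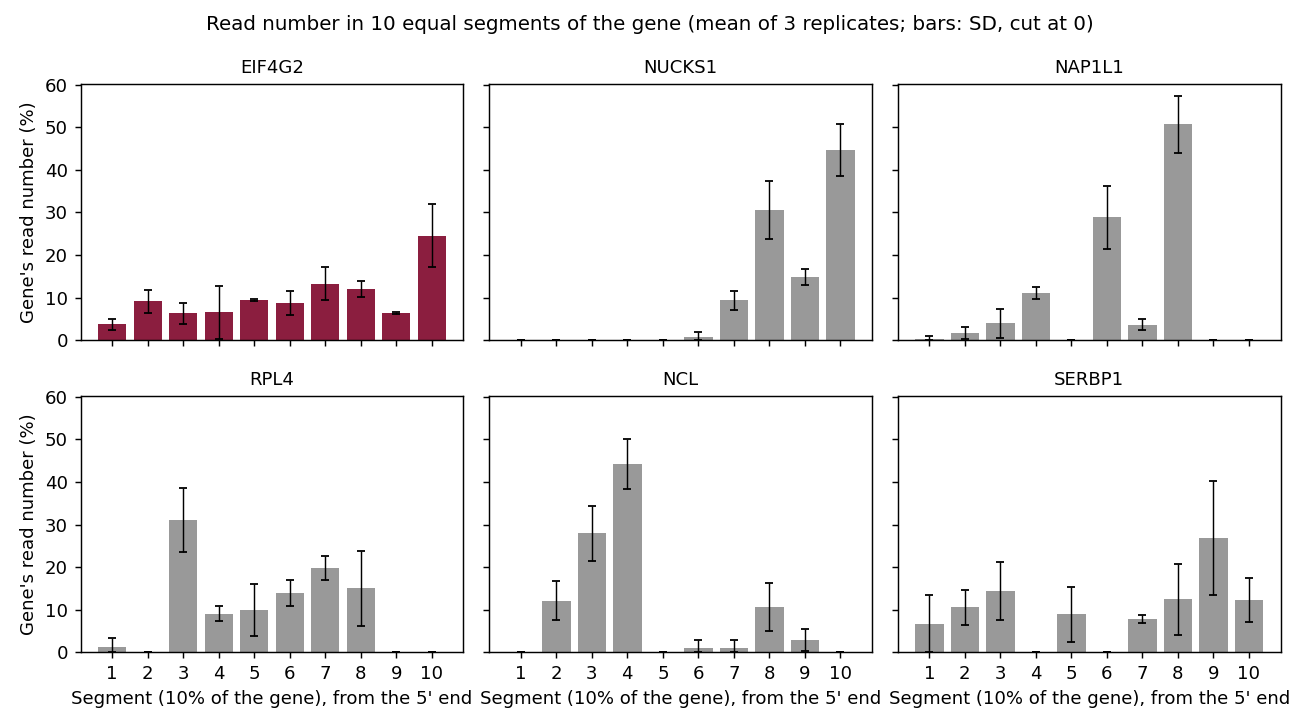
Share of each gene's summed read number (vertical axis, %) in 10 equal segments of the gene from the 5' end (horizontal axis), for EIF4G2 and the 5 genes most like it, as the mean of 3 replicates with SD bars. EIF4G2 has values between 3.74% and 24.5% in every segment, while the other genes have segments at 0.

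The 2 paralogs of EIF4G2 had much weaker peaks. EIF4G1, the main eIF4G scaffold of cap-dependent initiation, had 11, 10 and 8 peaks with highest read numbers of 7, 7 and 6 in replicates 1, 2 and 3, and 4 regions in all of them. Of its 29 lines, 19 stood under a second gene ID as well. EIF4G3, another eIF4G scaffold, had 12, 21 and 34 peaks with highest read numbers of 5, 5 and 6 and 3 regions, in a gene of 370606 bp. No value of either gene reached the lowest EIF4G2 peak of 9, although EIF4G3 had nearly as many peaks on average, 22.3 ± 11.1 (SD, n = 3).

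Among 14 genes of the eIF4F complex and its partners, EIF4G1 and EIF4G3 included, 8 held a region in all 3 replicates, with a median of 1.5 regions. Of all protein-coding genes 6.08% did, and their median was 0. Most of those genes had no peak at all: 1213 of the 5575 with a peak had such a region. In the eIF4F list 9 genes had a peak. EIF4B, which stimulates the eIF4A helicase, had 8 regions and a highest read number of 20.7 ± 6.35, and EIF4EBP2, an inhibitor that binds eIF4E, had 6 and 23.7 ± 2.89. The helicases EIF4A1 and EIF4A2 had 3 regions each with highest read numbers of 13 ± 2.00 and 19 ± 2.65, all 26 lines of EIF4A1 being listed under a second gene ID too. PABPC1, the cytoplasmic poly(A)-binding protein, had 2 regions and 21.7 ± 3.79, and EIF4H, another helper of eIF4A, had 1 and 7.33 ± 1.15 (SD, n = 3). The cap-binding gene EIF4E had no peak tied to it.

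Among 20 genes for eIF2, eIF3 and factors of start-site selection, 17 had a peak. At least 1 region shared by the 3 replicates was found in 8, with a median of 0. EIF3E, a subunit of eIF3, had 6 regions and a highest read number of 21.0 ± 3.00. EIF3A, the largest eIF3 subunit, had 3 and 20 ± 4.36. EIF1AX, which helps in scanning for the start codon, and EIF5B, which joins the ribosomal subunits, had 4 regions each, with 18.7 ± 2.52 and 19.3 ± 11.1. EIF2S3, the gamma subunit of eIF2, had 1 region and 22.3 ± 5.13, EIF5, a GTPase-activating partner of eIF2, 1 and 7.67 ± 1.53, EIF3J 1 and 4.67 ± 1.53, and EIF3H 1 and 3.67 ± 1.15 (SD, n = 3). The highest mean among the members of both lists, 23.7 in EIF4EBP2, was below the 67.3 of EIF4G2. Those counts do not separate binding from transcript abundance, which was not measured in these lists.

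Markers of the cell line were also looked up. VIM, an intermediate filament gene active in this line, had 7, 8 and 5 peaks, while KRT8 and KRT18, also listed for it, had none. None of 6 genes typical of other cell types, ALB, HBB, CD3E, PTPRC, MYH7 and INS, had a peak. Of 19951 protein-coding genes only 5575 had a peak, so these counts are too few to check the labels. A transcript without a peak may still be present.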

How the data were processed

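The authors deposited 1 peak list per replicate, with hg38 coordinates, per the submitters' processing notes, which list bedtools and deepTools. Which aligner and peak caller were run, and whether molecular identifiers were used, is not given in the sources used here. Every line deposited holds a position, a p-value from the authors' peak caller, all under 0.05 with no stated adjustment, a short stretch within the peak, and a name with gene ID, index and read number. The other deposited columns hold positions, and the read number is not named in the lists. Depth is known only through read numbers, since reads outside peaks were not used here, and a sum of them is not a count of molecules.

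Lines with 1 interval and strand under several gene IDs were counted once in totals. A gene ID was named by the RefSeq gene holding at least 90% of its peak centres, and by the single protein-coding one where there were several. This named 5757 of 6583 IDs. Genes with over 10% of lines under a second ID were left out of the ranking by likeness. The genes named were EIF4G2, its neighbours, members of 2 lists of initiation factors with a region in all replicates, its paralogs, and the 5 genes most like it. The members and lists were chosen with earlier results of these data known. No test was run, as there was 1 group. Alternatives were a stricter 50% of each list, each replicate left out, touching peaks merged or counted once, 50% overlap, regions in 2 or more replicates, and a read number of 5 or more. Merging was tested on simulated lists with widely spaced sites and a few touching peaks. That does not cover regions as crowded as some in EIF4G2. Python 3.11.15, pandas 2.3.3, numpy 2.4.6, scipy 1.17.1 and matplotlib 3.10.9 were used.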

Additional observations from a re-analysis of the deposited data

How the results depend on the processing

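The number of EIF4G2 peaks, the rank of the gene by regions, the share of its peaks in the last 10% of the gene and the share of its read number in the strongest region stayed within the limits set for them under every alternative run for them. The limits were a factor of 1.5 for counts and ranks and 1 SD over the replicates for shares. The stricter lists and, where run, the read number of 5 or more dropped no EIF4G2 peak. Leaving out 1 replicate averages 2 of the same 3 values. Neither kind could move the peak number or these shares past the limits, so nothing is read from their staying within them. The rank was 2 in the main setting and 2 to 3 elsewhere. The 13 regions became 7 when 50% of both peaks had to overlap and 23 when 2 or more replicates sufficed, and leaving out 1 replicate, so that 2 lists were needed, gave 14 to 20. The share of nuclear-encoded read numbers was 0.605% with the stricter 50% of each list and 0.676% with a read number of 5 or more, since both drop weak peaks of other genes and none of EIF4G2. The share of peaks overlapped by a peak of another replicate was 90.8% ± 4.63 (SD, n = 3), 61.9% with 50% of both peaks required and 71.5% to 81.5% with 1 replicate left out, since fewer lists were then searched. No paired analysis was possible because there was only 1 group. Narrow peaks of low read number limit what can be said of single sites.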

Other observations

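Identical 3' edges were also counted in the 5 genes most like EIF4G2, as values with no test. An edge identical in at least 2 replicates was found at the 3' side of 6 of 13 shared regions in EIF4G2, against 5 of 10 in RPL4, 4 of 12 in NUCKS1, 4 of 12 in NAP1L1, 4 of 8 in NCL and 2 of 8 in SERBP1. At the 5' side the count was 2 in EIF4G2, against 4, 4, 4, 3 and 1 in the others, in the same order.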
